A study of Caenorhabditis elegans with 12 samples.

Results

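Wild-type cells in which the mir-124 promoter drives GFP (GFP+) were compared with wild-type cells without GFP (GFP-), to ask which transcripts mark the cells that use this promoter. The comparison takes 6 of the 12 Affymetrix C. elegans arrays of the study, 3 GFP+ and 3 GFP-, chosen by their sample titles. Without both replicate 3 arrays it takes 4. Every group carried the same integrated transgene, pmir-124::GFP with a lin-15(+) rescue plasmid. It was made in lin-15(n765) worms and outcrossed 2 times into the N2 wild-type background, so the wild-type groups also carry the reporter and the rescue. The other 6 arrays are GFP+ and GFP- cells of the mir-124 mutant with this transgene, and they enter only the shared estimate of the spread and the test between the strains. Embryonic cells freed from the eggs of synchronised adults stayed in culture for 24 hours before flow cytometry collected 500000 of them for each sample. The RNA was amplified before labelling. The reporter reads the activity of a promoter fragment in a transgene, not the microRNA itself, and the cells are embryonic cells in culture, not tissue.

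The microRNA miR-124 is conserved across animals and is best known for its abundance in neurons. In C. elegans its promoter is active largely in ciliated sensory neurons, which smell, taste, and sense temperature, touch and oxygen through a cilium at the tip of each dendrite. Cilia are built by intraflagellar transport (IFT), in which kinesin motors carry cargo on 2 protein complexes, A and B, toward the tip and a dynein motor brings it back. The BBSome connects membrane cargo to these trains, and the transition zone is the gate at the base of the cilium. In many of these neurons, receptors signal through G proteins and guanylyl cyclases to channels opened by cyclic GMP.

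Both replicate 3 arrays stood apart from the other wild-type arrays, and the library labelled GFP- replicate 3 looked like GFP+ cells. Across probe sets it correlated with GFP+ replicate 3 at r = 0.977 and with GFP+ replicates 1 and 2 at 0.942 and 0.943. Its correlation with GFP- replicates 1 and 2 was 0.893 and 0.903, while these 2 correlated with each other at 0.987. GFP+ replicate 3 in turn correlated with GFP+ replicates 1 and 2 at 0.941 and 0.944, against 0.99 between those 2. The log2 gap between the 3' and middle probe sets of the spiked control RNAs, a sign of RNA amplification and labelling, was 4.049 and 4.017 on the 2 replicate 3 arrays. It was 1.868 to 2.494 on the other 10 arrays. The part of this in the results below was not tested. The median log2 signal of an array was 5.391 to 5.509. The triplicates are described as biological, but separate cultures are not stated, so the p-values cover no more than the spread among these arrays.

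Each result is therefore given from 2 fits of limma, with all 12 arrays and with the 10 arrays left without both replicate 3 arrays (2 arrays in each wild-type group). Differences are GFP+ minus GFP- in log2 units ± SE, where 1 unit is a 2-fold difference. Array values are log2 signals for replicates 1, 2 and 3 in that order. "Rose", "fell" and "passed" refer to a limma adjusted p under 0.05 over all 22548 probe sets in the 10-array fit. Each of 17118 genes is read by 1 probe set. For gene lists, the counts found when 1 of the 4 arrays was left out are given where they moved most, always in the order GFP+ replicate 1, GFP+ replicate 2, GFP- replicate 1, GFP- replicate 2. The lone array that remains takes its spread from the other groups. List counts from the 10-array fit stand beside 8.78% of all genes that rose and 8.07% that fell. These shares do not serve for the other fits. With replicate numbers entered as a block within each strain, 2610 of all probe sets were higher and 2712 lower, against 1906 and 1705. With 1 of the 4 arrays left out, fewer probe sets passed than in the 10-array fit. A list count that moves in such a fit can follow the change over all probe sets.

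With all 12 arrays a single gene passed, F20D6.10, or 0.00584% of genes, or 0.00443% of probe sets, although 2740 probe sets reached an unadjusted p under 0.05, where chance alone gives 1127. F20D6.10 read 4.51, 4.42 and 4.64 in GFP+ cells and 6.45, 6.45 and 5.93 in GFP- cells. The groups did not overlap in any replicate, and its differences were -1.75 ± 0.171 (12 arrays, adjusted p = 0.0215) and -1.985 ± 0.159 (10 arrays, adjusted p = 6.04e-05). The 12-array call was lost when replicate numbers entered as a block within each strain (adjusted p = 0.148) and with the wild-type arrays alone (adjusted p = 0.721). It was also lost without GFP+ replicate 1, GFP- replicate 1, GFP+ replicate 2 or GFP- replicate 2 (adjusted p = 0.209, 0.185, 0.229 and 0.196). With 10 arrays, 1503 genes rose (8.78% of genes) and 1381 fell (8.07%), 2884 in all. The rises exceeded 1 log2 unit for 990 genes and 3 for 121; the falls exceeded 1 for 932 and 3 for 110. Leaving out the library labelled GFP- replicate 3 alone gave 2705 probe sets, and leaving out GFP+ replicate 3 alone gave 394, against 3611 without both, of which 1906 were higher (8.45% of probe sets) and 1705 lower (7.56%). From the 10 arrays, 1889, 1924, 2164 and 2138 probe sets passed with 1 more wild-type array left out.

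Within replicate 3 the difference between the fractions nearly vanished. The SD over genes of GFP+ minus GFP- was 0.831 and 0.807 in replicates 1 and 2 and 0.439 in replicate 3. Across 17118 genes, which are not independent replicates, the differences of replicates 1 and 2 correlated at r = 0.921, and those of replicate 3 with them at -0.073 and -0.065. Of the 1503 genes that rose without replicate 3, GFP+ replicate 3 read above GFP- replicate 3 for 712 (47.4%), against 58.9% of all genes. Of the 1381 that fell, it read below for 549 (39.8%), against 40.9% of all genes. GFP- replicate 3 lay nearer to the GFP+ mean of replicates 1 and 2 than to the GFP- mean for 1156 of the genes that rose (76.9%) and 986 of those that fell (71.4%). GFP+ replicate 3 did so for 1111 (73.9%) and 932 (67.5%). The values of replicates 1 and 2 did not overlap between the fractions for 57.8% of all genes, and those of replicates 1, 2 and 3 for 10.8%. Of the 2884 genes that passed, 613 stayed apart with replicate 3 included, 267 of those that rose and 346 of those that fell.

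**Figure D1:**
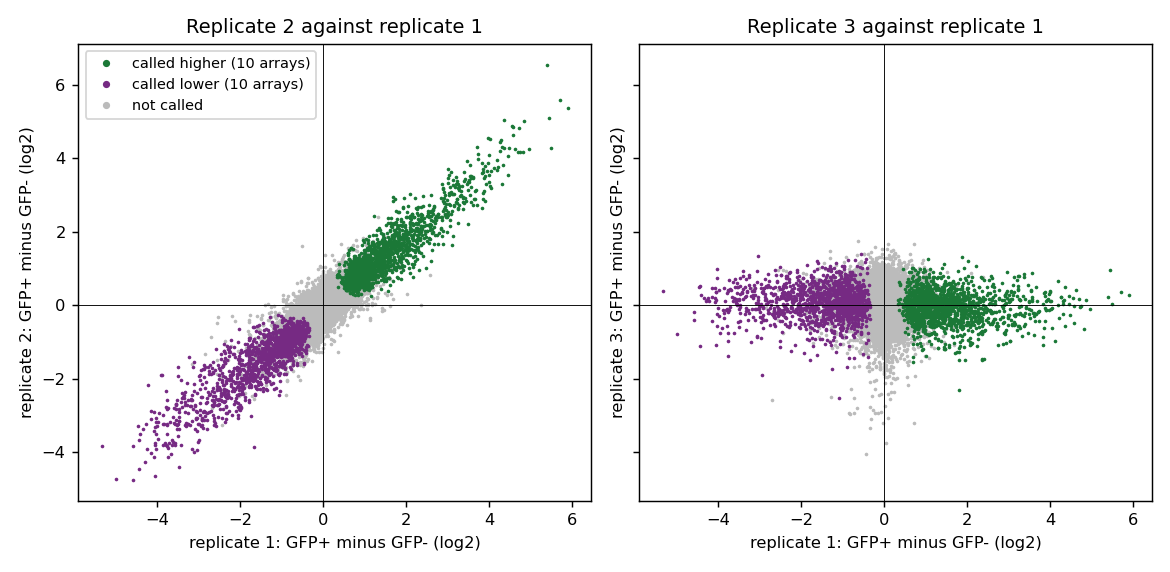
GFP+ minus GFP- (log2 units) of each gene in one wild-type replicate pair against another, a point for each of 17118 genes. The pairs 1 and 2 lie along a diagonal (r = 0.921), while the pair 3 shows no such relation to them (r = -0.073 and -0.065).

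Among the 10 largest rises, R102.2, for which no role is given here, read 11.18, 11.39 and 13.04 in GFP+ and 5.79, 4.84 and 12.83 in GFP- cells. GFP- replicate 3 was as bright as the GFP+ arrays and the other GFP- arrays were far below them. Its difference was 5.97 ± 0.255 (10 arrays, adjusted p = 3.81e-06) and 4.05 ± 1.61 (12 arrays, adjusted p = 0.36). F10E9.1 read 9.62, 9.61 and 10.25 against 3.92, 4.01 and 9.89, a difference of 5.65 ± 0.248 with 10 arrays and 3.89 ± 1.25 with 12. The genes xbx-9 and xbx-3 are named for the X-box, the promoter element bound by the ciliary regulator DAF-19. Of these, xbx-9 read 10.45, 10.66 and 11.24 against 4.54, 5.30 and 10.97, and xbx-3 rose by 4.94 ± 0.215 with 10 arrays. The neuropeptide gene nlp-3 read 10.49, 10.38 and 11.23 against 5.04, 5.28 and 10.26, and its 10-array difference was 5.27 ± 0.269. The others among the 10 largest rises were nex-4, an annexin (4.89 ± 0.277), T05C12.8 (4.78 ± 0.207), daf-11 (4.72 ± 0.166), ifta-2 (4.72 ± 0.285) and Y41E3.5 (4.69 ± 0.185). Y41E3.5 is read by a probe set that can bind related transcripts. In each of these 10 genes GFP- replicate 3 lay above 8 and GFP- replicates 1 and 2 lay below 6 log2 units.

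Among the 10 largest falls, the beta-ureidopropionase upb-1, an enzyme of pyrimidine breakdown, read 6.29, 6.20 and 7.21 in GFP+ and 11.28, 10.95 and 7.99 in GFP- cells. Its replicates 1 and 2 were far apart and its replicate 3 values close together. It fell by 4.87 ± 0.29 with 10 arrays (adjusted p = 1.74e-05), and with 12 arrays the difference was -3.50 ± 0.716 (adjusted p = 0.248). F35C12.3 (-4.67 ± 0.363), the small heat shock protein gene hsp-12.1 (-4.585 ± 0.447) and idhg-2, an isocitrate dehydrogenase subunit (-4.45 ± 0.477), fell next. The cystatin cpi-1, a cysteine protease inhibitor, read 4.37, 4.14 and 6.48 against 8.43, 8.79 and 6.11, so that replicate 3 ran the other way. It fell by 4.36 ± 0.332 with 10 arrays (adjusted p = 4.94e-05). The aspartyl protease asp-5 (-4.28 ± 0.41), the collagen mec-5 (-4.21 ± 0.491), the saposin spp-10 (-4.11 ± 0.426), the carboxypeptidase ctsa-1.1 (-4.09 ± 0.44) and cof-2 (-4.08 ± 0.34) made up the rest of the 10. The probe sets of upb-1, asp-5 and spp-10 can bind related transcripts. Like these, 801 of the 2884 genes that passed are read by such probe sets. In these arrays of whole sorted fractions, fewer cells of a type and less RNA per cell cannot be told apart. The lower quartile of the wild-type arrays was 4.075 to 4.224. For 146 genes that rose, GFP- replicates 1 and 2 both lay under that of their array (4.102 and 4.218), where the size of a difference is uncertain. This holds for F10E9.1, for daf-11 and, among other genes given below, for che-11, gcy-32, odr-10 and sru-38. It holds also for further genes, some of them marked below.

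Most genes of the cilium were higher in GFP+ cells. Of 69 ciliary genes on 6 lists, 65 rose with 10 arrays and the other 4 did not pass; 8.78% of all genes rose. The median over the 69 was 2.79 with 10 arrays and 1.89 with 12, where all genes had a median of -0.024 and 0.009. Their mean signal was 8.51, 8.13 and 8.84 in GFP+ and 5.71, 5.62 and 8.85 in GFP- cells, so GFP- replicate 3 matched the GFP+ arrays. It read above both other GFP- arrays for 65 of the 69, a count for which no share over all genes was taken. The fractions were apart in replicates 1 and 2 for 66 of these genes, beside 57.8% of all genes, and with replicate 3 included for 4, beside 10.8% of all genes. With all 12 arrays none of the 2839 genes on the 56 lists used here passed limma, and 509 of them had an unadjusted p under 0.05. The signs of the list medians were the same in both fits for 55 lists, the exception being the coelomocyte list.

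The train complexes rose as a whole. All 6 genes of IFT complex A passed, with a median of 2.97 (1.86 with 12 arrays). With the mean of all single-gene probe sets of each gene, the 10-array median was lower, at 2.21. The complex A gene che-11 read 8.30, 7.94 and 9.42 in GFP+ and 3.34, 3.69 and 9.53 in GFP- cells. It rose by 4.61 ± 0.391 with 10 arrays (adjusted p = 8.29e-05) and its 12-array difference was 3.04 ± 1.31 (adjusted p = 0.395). Also of complex A, ift-139 rose by 3.85 ± 0.212, ifta-1 by 3.43 ± 0.202 and daf-10 by 2.51 ± 0.359. All 13 genes of complex B passed, with a median of 3.31 (2.24 with 12 arrays), from 1.262 up to 4.722. Here osm-5, whose mammalian counterpart is the polycystic kidney disease gene IFT88, read 10.06, 9.64 and 11.09 against 6.23, 6.03 and 11.04. It rose by 3.72 ± 0.264 with 10 arrays and its 12-array difference was 2.496 ± 1.07 (adjusted p = 0.389). In complex B, ifta-2 was the member with the largest rise, dyf-13 rose by 3.72 ± 0.189, dyf-11 by 3.69 ± 0.38, che-13 by 3.62 ± 0.232 and osm-6 by 2.63 ± 0.131. The probe sets of che-11 and osm-5 can bind related transcripts.

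The motors divided. The dynein heavy chain che-3, which returns trains from the ciliary tip, read 9.83, 9.99 and 10.43 in GFP+ and 5.54, 5.50 and 10.41 in GFP- cells. It rose by 4.39 ± 0.249 with 10 arrays (adjusted p = 1.34e-05) and its 12-array difference was 2.94 ± 1.04. The dynein subunits xbx-1 and dylt-2 rose by 3.10 ± 0.182 and 2.14 ± 0.234. The kinesin osm-3, which drives trains along the outer cilium, rose by 1.48 ± 0.268 (adjusted p = 0.00519), a call lost without GFP+ replicate 1. The kinesin-II subunit klp-11, named after its values were seen, read 10.36, 10.13 and 10.31 against 10.50, 10.09 and 10.37. Its values overlapped between the fractions, with a difference of -0.05 ± 0.188 (adjusted p = 0.925). The other motor that did not pass, klp-6 (also named after its values were seen), is a kinesin of a few male-specific and inner labial neurons, and it differed by 0.33 ± 0.126 (adjusted p = 0.124). Of the 8 motor genes 6 rose, with a median of 1.36 (0.99 with 12 arrays); the count was 3, 6, 6 and 5 with 1 array left out. The probe sets of che-3 and osm-3 can bind related transcripts.

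The cargo adaptor and the gate followed. All 6 BBSome genes rose, with a median of 3.38 (2.27 with 12 arrays). Among them bbs-5 read 10.14, 9.61 and 10.72 against 5.82, 5.30 and 10.59, a rise of 4.32 ± 0.223 (10 arrays, adjusted p = 8.13e-06). It was followed by bbs-9 (3.92 ± 0.254), bbs-2 (3.39 ± 0.299) and bbs-1 (3.38 ± 0.251). All 14 transition zone genes rose, with a median of 2.88 (2.02 with 12 arrays). The membrane protein gene tmem-231 read 10.13, 9.71 and 10.64 against 6.11, 5.18 and 10.74. It rose by 4.28 ± 0.295 with 10 arrays. Also at the gate, nphp-4, a nephrocystin, rose by 4.26 ± 0.256, jbts-14 by 3.99 ± 0.342 and mks-6 by 3.47 ± 0.396. Of 22 further ciliary genes 20 rose (median 1.74, or 1.41 with 12 arrays), among them the small GTPases rab-28 (4.07 ± 0.223) and arl-3 (3.68 ± 0.258) and the kinase dyf-5 (2.79 ± 0.196), which limits ciliary length. The 2 that did not pass, named after their values were seen, were hyls-1, a centriole protein gene (-0.18 ± 0.153, adjusted p = 0.544), and xbx-5 (0.09 ± 0.175, adjusted p = 0.827).

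**Figure D2:**
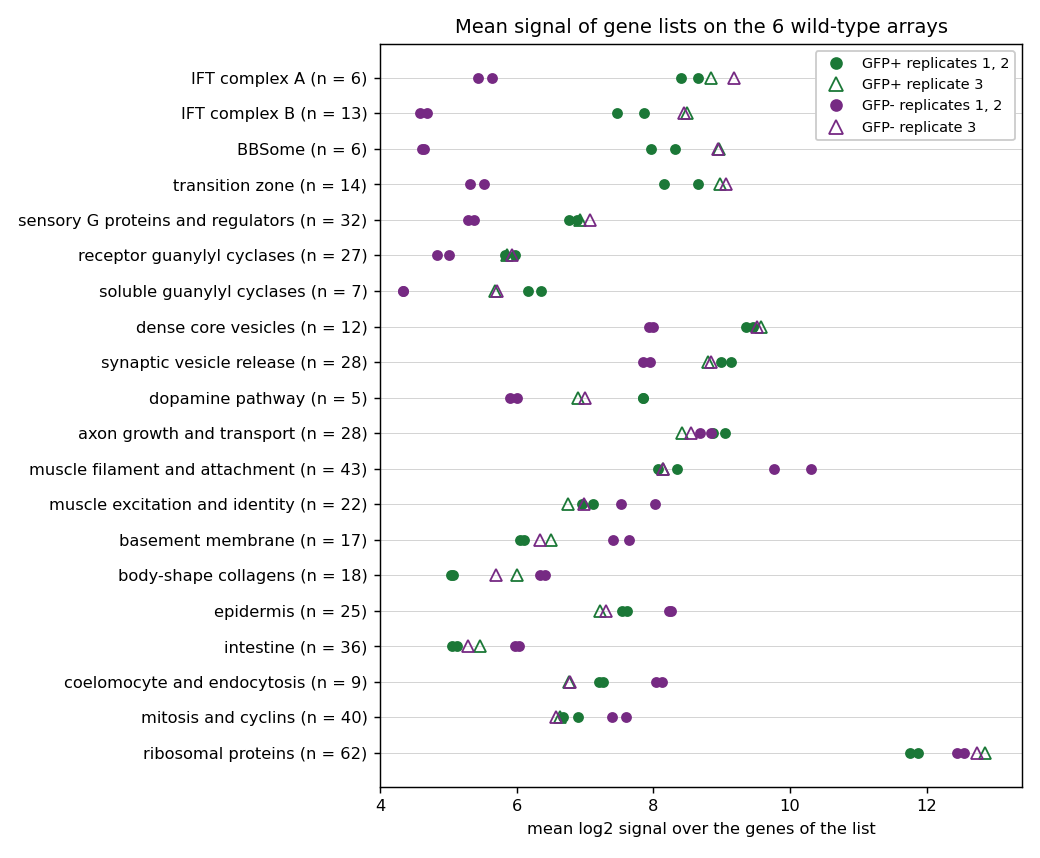
Mean log2 signal over the genes of each list on the 6 wild-type arrays, with circles for replicates 1 and 2, triangles for replicate 3, green for GFP+ and purple for GFP-. In the ciliary lists both triangles lie with the green circles, in the muscle filament list they lie with the lower GFP+ values, and in the ribosomal list they lie above the other 4 arrays.

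Signalling genes of the sensory cilium were higher as well. Of 32 G proteins and their regulators 20 rose, with a median of 1.503 (0.955 with 12 arrays). The regulator rgs-3, which tunes the strength of sensory signalling, read 8.86, 8.72 and 8.46 against 4.29, 4.09 and 8.47. It rose by 4.61 ± 0.176 with 10 arrays (adjusted p = 3.29e-06) and its 12-array difference was 3.07 ± 0.903 (adjusted p = 0.267). The G protein gamma subunit gpc-1 rose by 3.77 ± 0.163, and the alpha subunits gpa-13 and gpa-1 rose by 3.21 ± 0.172 and 3.09 ± 0.295. Of 14 cyclic nucleotide-gated and TRP channel genes 8 rose and 1 fell (median 1.13, or 0.85 with 12 arrays). The subunits tax-4 and tax-2 form the main cyclic GMP-gated channel. The former read 6.32, 6.09 and 6.81 against 3.40, 3.30 and 6.79, a rise of 2.86 ± 0.197 (adjusted p = 3.05e-05), and tax-2 rose by 2.23 ± 0.192. The TRPV channels ocr-4 and ocr-2 rose by 3.86 ± 0.243 and 2.77 ± 0.261. The polycystin lov-1, known for male mating neurons, fell by 1.25 ± 0.311 (adjusted p = 0.0242), a call lost with any of the 4 arrays left out. The GFP- values of replicates 1 and 2 of gpc-1, gpa-13, tax-4, tax-2 and ocr-4 lay under the lower quartile.

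The cold-sensing TRPA channel gene trpa-1 is given because mir-124 lies inside it on the RefSeq annotation, and no probe set is annotated to mir-124 itself. It read 7.78, 7.53 and 6.86 in GFP+ and 5.51, 5.42 and 7.09 in GFP- cells. Replicates 1 and 2 were apart, and GFP- replicate 3 read above GFP+ replicate 3. It rose by 2.19 ± 0.161 with 10 arrays (adjusted p = 4.2e-05) and its 12-array difference was 1.39 ± 0.397 (adjusted p = 0.26).

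Guanylyl cyclases of both families were higher in part. Soluble cyclases, which sense oxygen in the URX, AQR, PQR and BAG neurons, had 6 of 7 members higher and a median of 1.60 (0.84 with 12 arrays). The BAG cyclase gcy-33 read 8.84, 8.48 and 9.59 in GFP+ and 4.87, 3.92 and 9.29 in GFP- cells, a rise of 4.27 ± 0.343 (10 arrays, adjusted p = 6.2e-05). The URX cyclase gcy-32 read 6.23, 6.098 and 5.26 against 2.87, 3.18 and 4.49. It was among the genes whose fractions stayed apart in all 3 replicates, and rose by 3.14 ± 0.289 with 10 arrays, with a 12-array difference of 2.35 ± 0.423 (adjusted p = 0.248). For gcy-37 the picture was another: 6.99, 7.28 and 5.44 against 5.02, 5.25 and 5.59, so that both replicate 3 arrays lay near GFP- replicates 1 and 2. It rose by 2.00 ± 0.202. The member that did not pass, gcy-31, differed by 0.37 ± 0.214 (adjusted p = 0.314). Receptor cyclases had 13 of 27 members higher and a median of 0.72 (0.49 with 12 arrays), with counts of 3, 8, 4 and 9 when 1 array was left out. Among them daf-11, a cyclase of dauer and odour signalling, read 8.56, 8.54 and 8.13 against 3.99, 3.67 and 8.596. It rose by 4.72 ± 0.166 (adjusted p = 3.29e-06), and its GFP- replicates 1 and 2 lay under the lower quartile. The AFD cyclases gcy-8 and gcy-23 rose by 3.24 ± 0.31 and 2.17 ± 0.384, and gcy-11 by 2.53 ± 0.694, whose call was lost with any of the 4 arrays left out. The probe sets of gcy-33 and gcy-11 can bind related transcripts.

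Markers of single sensory neuron classes were mostly higher, but unevenly. For the AWA olfactory neuron both genes rose. Its diacetyl receptor odr-10 read 7.77, 8.23 and 9.40 against 4.03, 4.11 and 9.55 (3.93 ± 0.556, adjusted p = 0.00142), and its nuclear receptor odr-7 rose by 1.73 ± 0.18. For the AFD thermosensory neuron 3 of 5 rose. The regulator ttx-1 read 9.16, 8.05 and 5.92 against 9.09, 8.21 and 6.91; replicates 1 and 2 overlapped between the fractions (-0.04 ± 0.467, adjusted p = 0.976) and both replicate 3 arrays were lower. In the ASI and ASJ neurons, the TGF-beta ligand daf-7 rose by 3.15 ± 0.239, the insulin daf-28 by 4.36 ± 0.169, the sulfotransferase ssu-1 by 4.50 ± 0.271 and the thioredoxin trx-1 by 1.56 ± 0.262. With the ASK markers, 6 of 10 rose; str-3, gpa-4, srbc-66 and sra-9 did not pass. In the AWC and AWB list 3 of 5 rose, and 2 did with any of the 4 arrays left out: ceh-36 (2.62 ± 0.44), a homeobox regulator of AWC, and lim-4 (1.60 ± 0.245), one of AWB. The ASE salt-sensing markers che-1, gcy-5 and gcy-6 rose by 0.97 ± 0.234, 0.72 ± 0.185 and 0.62 ± 0.18, and these 3 counts became 0, 0, 0 and 1 with 1 array left out. In the ASH and ADL list osm-10 was the 1 of 5 genes that rose (1.91 ± 0.329, adjusted p = 0.00405), and 2 did with the replicate block. All 5 URX, AQR and PQR cyclases rose. Of the 4 BAG genes gcy-33 and the peptide flp-17 rose, the latter by 2.99 ± 0.711, a call lost with any of the 4 arrays left out.

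Dopamine neurons are ciliated touch sensors, and the replicate 3 values of their pathway genes were not alike. The mean over the 5 listed genes was 6.902 on GFP+ replicate 3 and 7.004 on GFP- replicate 3. Both lay between the GFP+ and the GFP- means of replicates 1 and 2. The dopamine transporter dat-1 read 9.30, 9.62 and 8.35 in GFP+ and 7.35, 6.71 and 8.31 in GFP- cells, and rose by 2.43 ± 0.271 (10 arrays, adjusted p = 0.000355). The vesicular monoamine transporter cat-1 read 9.04, 9.18 and 7.12 against 7.25, 7.08 and 7.10. For cat-1 both replicate 3 arrays thus lay at the level of GFP- replicates 1 and 2, unlike the ciliary genes. For dat-1 they lay between the fractions of replicates 1 and 2. The gene cat-1 rose by 1.94 ± 0.262 with 10 arrays, and with 12 the difference was 1.30 ± 0.461 (adjusted p = 0.322). The synthesis genes cat-4 and bas-1 rose by 2.29 ± 0.287 and 2.21 ± 0.241. The rate-limiting tyrosine hydroxylase cat-2 read 5.34, 5.36 and 4.72 against 4.77, 4.69 and 4.78, and did not pass (0.62 ± 0.197, adjusted p = 0.0634; adjusted p = 0.0175 with the replicate block). In the serotonin and octopamine list tph-1, the serotonin synthesis enzyme, was the 1 of 4 members that rose (1.42 ± 0.254, adjusted p = 0.00483), and 2 did with the replicate block.

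**Figure D3:**
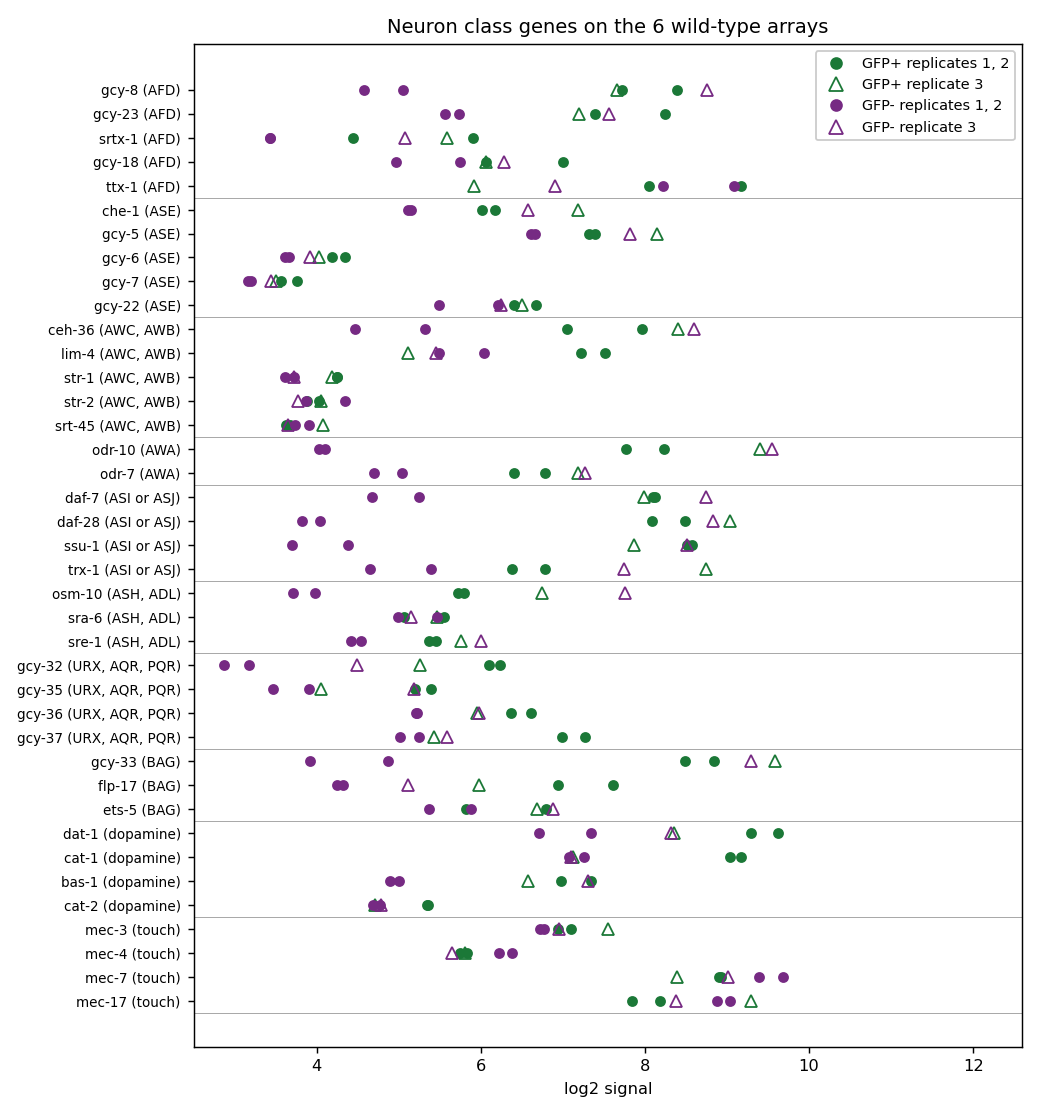
Log2 signal of neuron class genes on the 6 wild-type arrays, grouped by the class each marks, with circles for replicates 1 and 2, triangles for replicate 3, green for GFP+ and purple for GFP-. For odr-10 both triangles lie above the GFP+ circles, and for cat-1 and gcy-37 both lie near the GFP- circles.

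The genes listed for touch receptor neurons, which are not ciliated, did not move one way. This list is not confined to genes made by these neurons, so its counts do not measure them alone. Of 16 genes 4 rose and 4 fell, with a median of -0.08 (-0.11 with 12 arrays). The tubulin mec-12 (1.27 ± 0.218), the regulators alr-1 (1.23 ± 0.191) and unc-86 (1.01 ± 0.205) and mec-15 (0.70 ± 0.199, lost with any of the 4 arrays left out) rose. The rises numbered 3, 2, 3 and 3 and the falls 2, 3, 4 and 4 with 1 array left out. The collagen mec-5, described above, fell by 4.21 ± 0.491; it is known to be made by the epidermis around these neurons. The stomatin mec-2 read 6.37, 6.70 and 7.29 against 8.68, 8.19 and 7.45 and fell by 1.90 ± 0.255. The acetyltransferase mec-17 fell by 0.94 ± 0.173 and the tubulin mec-7 by 0.62 ± 0.149; without GFP+ replicate 1 neither passed, and mec-7 did not pass without GFP+ replicate 2 or GFP- replicate 1 either. The channel subunit mec-4 (-0.51 ± 0.219, adjusted p = 0.163) and the class regulator mec-3 (0.27 ± 0.269, adjusted p = 0.608) did not pass.

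Among genes of transmitter identity the glutamate marker rose most. The vesicular glutamate transporter eat-4 read 9.10, 9.06 and 7.89 in GFP+ and 5.89, 6.26 and 8.58 in GFP- cells. It rose by 3.003 ± 0.281 with 10 arrays (adjusted p = 0.000136) and its 12-array difference was 1.77 ± 0.616 (adjusted p = 0.318). The choline transporter cho-1 read 7.41, 7.41 and 5.31 against 6.07, 5.85 and 5.31; both replicate 3 arrays were below all others. It rose by 1.45 ± 0.291, a call lost without GFP+ replicate 1, GFP+ replicate 2 or GFP- replicate 2. The GABA transporter snf-11, also found in muscle, fell by 1.78 ± 0.377, a call lost without GFP+ replicate 2 or GFP- replicate 1. These were the 2 rises and 1 fall among 15 identity genes (median 0.60, or 0.32 with 12 arrays), with rises of 1, 1, 2 and 1 and falls of 1, 0, 0 and 1 when 1 array was left out, and 8 rises with the replicate number as a block. In that blocked fit the acetylcholine transporter unc-17 (1.14 ± 0.471, adjusted p = 0.148 without the block and 0.0125 with it) and the GABA genes unc-25 (adjusted p = 0.359 and 0.0233) and unc-47 (adjusted p = 0.147 and 0.00966) passed.

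Genes of neuronal secretion were higher. Of 28 genes of synaptic vesicle release 22 rose, with a median of 1.22 (0.81 with 12 arrays) and counts of 12, 17, 15 and 13 with 1 array left out. The regulator aex-3, an exchange factor for the vesicle GTPase RAB-3, read 8.58, 8.196 and 7.53 against 6.06, 5.68 and 7.49 and rose by 2.52 ± 0.354 (adjusted p = 0.0014). Rabphilin rbf-1 rose by 2.01 ± 0.294 and tomosyn tom-1, an inhibitor of release, by 1.75 ± 0.168. Complexin cpx-1 rose by 1.94 ± 0.507, a call lost with any of the 4 arrays left out. Dense core vesicles, which carry peptides, had 9 of 12 genes higher and a median of 1.74 (1.23 with 12 arrays). The peptide-processing carboxypeptidase egl-21 read 11.74, 11.64 and 10.75 against 9.66, 9.51 and 11.28, a rise of 2.11 ± 0.208 (adjusted p = 0.000177), and tbc-8 (2.30 ± 0.231) and the amidating enzyme pghm-1 (1.97 ± 0.328) rose as well. Of 28 axon growth and transport genes 7 rose and 3 fell, with a median of 0.31 (0.15 with 12 arrays). The rises numbered 2, 3, 3 and 4 and the falls 2, 0, 0 and 3 with 1 array left out. The vesicle kinesin unc-104 led the rises (1.84 ± 0.256, adjusted p = 0.0013), and vab-8, a guidance kinesin, the falls (-1.36 ± 0.278), the latter not past the threshold without GFP+ replicate 2 or GFP- replicate 1.

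Part of the neuropeptide genes rose. Of the peptide genes of 3 families 38 rose, 2 fell and 67 did not pass (median 0.67, or 0.55 with 12 arrays). FMRFamide-like peptides had 13 of 25 members higher and 1 lower, and the rises numbered 9, 8, 9 and 9 with 1 array left out. Here flp-8 read 11.22, 11.14 and 12.25 in GFP+ and 7.32, 7.35 and 12.13 in GFP- cells, a rise of 3.85 ± 0.24 (10 arrays, adjusted p = 2e-05). It was followed by flp-6 (2.51 ± 0.365) and flp-21 (2.08 ± 0.348), a ligand of the NPR-1 receptor. By contrast flp-10 fell by 1.03 ± 0.235, a call lost with any of the 4 arrays left out. Of 58 neuropeptide-like genes 19 rose and 1 fell, with 13, 12, 14 and 11 rises when 1 array was left out. After nlp-3 came nlp-1 (3.23 ± 0.274), nlp-7 (2.999 ± 0.291) and nlp-47 (2.87 ± 0.195). For nlp-7 the replicate 3 arrays were the brightest of the 6, at 12.14 in GFP+ and 11.99 in GFP- cells, against 10.31 and 10.25 and against 7.05 and 7.52. The gene that fell, nlp-31, is known as an antimicrobial peptide of the epidermis (-1.58 ± 0.316), and it did not pass without GFP+ replicate 1, GFP+ replicate 2 or GFP- replicate 2. Of 24 insulin-like genes 6 rose (median 0.03, or 0.26 with 12 arrays), led by daf-28, ins-30 (2.32 ± 0.378) and ins-18 (2.32 ± 0.194). Among npr receptors for such peptides 19 of 44 rose, led by npr-34 (3.06 ± 0.196) and npr-2 (2.18 ± 0.32), with a median of 0.67 (0.48 with 12 arrays) and counts of 11, 9, 13 and 11 with 1 array left out.

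Chemoreceptors, the largest gene family of the worm, rose in a minority. Of 1275 genes 92 rose and 10 fell, a share of rises near the 8.78% of all genes, and the median was 0.09 (0.10 with 12 arrays). The rises numbered 57, 52, 44 and 57 and the falls 3, 4, 5 and 4 with 1 array left out. For 542 of them all values of replicates 1 and 2 lay under the lower quartile in both fractions. The candidate receptor sru-38 read 7.36, 7.70 and 5.94 against 3.24, 3.95 and 6.92 and rose by 3.93 ± 0.345 (adjusted p = 9.84e-05). It was followed by sru-13 (3.36 ± 0.389), srsx-34 (3.29 ± 0.302) and srd-18 (3.25 ± 0.363). By family the share that rose ran from 0 of 14 srxa genes to 17.6% of 17 srb and 25% of 4 srm genes, beside 8.78% of all genes; these shares were not tested against each other. Of the falls, sre-2 had the largest (-1.89 ± 0.37), which did not pass without GFP+ replicate 1.

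Nuclear receptors, globins and channels contributed further rises. Of 254 nuclear hormone receptors 50 rose and 11 fell, beside 8.78% and 8.07% of all genes, with a median of 0.14 (0.09 with 12 arrays). The rises numbered 28, 35, 33 and 36 and the falls 5, 4, 7 and 6 with 1 array left out, and 18 fell with the replicate block. The receptor nhr-214 read 8.43, 8.92 and 8.59 against 4.59, 5.05 and 9.47 and rose by 3.85 ± 0.28, and nhr-51 (3.44 ± 0.177), nhr-167 (3.17 ± 0.186) and nhr-124 (3.09 ± 0.283) followed, while nhr-43 fell by 3.05 ± 0.488. Of 30 globins, heme proteins that in worms are widely made in neurons, 15 rose and 1 fell (median 0.94, or 0.62 with 12 arrays; rises of 8, 9, 8 and 11 with 1 array left out). Among them were glb-27 (1.99 ± 0.306), glb-7 (1.93 ± 0.319) and glb-12 (1.63 ± 0.13). Of 65 acr and lgc ligand-gated channels 14 rose and 3 fell, led by lgc-20 (3.80 ± 0.301), with rises of 8, 7, 7 and 9 and falls of 1, 1, 1 and 2 when 1 array was left out. Among 55 genes of potassium channel families 13 rose and 7 fell. The rises were led by kqt-2 (3.05 ± 0.237) and kcnl-4 (2.95 ± 0.283), and the falls by twk-18, a muscle channel (-2.92 ± 0.307), and twk-28 (-2.21 ± 0.351).

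Of 45 transcription factors of neuron identity 15 rose and 2 fell, with a median of 0.28 (0.27 with 12 arrays). The rises numbered 10, 9, 11 and 10 with 1 array left out, and the falls were 6 with the replicate block. Besides ceh-36, odr-7 and lim-4, the Sox factor egl-13 read 9.26, 8.83 and 7.45 against 7.30, 6.92 and 7.64 and rose by 1.93 ± 0.222. The falls were the Hox gene mab-5 (-1.34 ± 0.217) and the proneural gene cnd-1 (-1.004 ± 0.16). Among 60 ceh homeobox genes 6 rose and 3 fell, beside 8.78% and 8.07% of all genes. Here ceh-54 had the largest rise, with 8.78, 8.09 and 9.74 against 5.10, 4.96 and 9.63 (3.41 ± 0.26), and ceh-33 had the largest fall (-1.90 ± 0.434), which did not pass without GFP+ replicate 1, GFP+ replicate 2 or GFP- replicate 1. The falls of ceh genes numbered 2, 1, 1 and 3 with 1 array left out. With the replicate block 10 rose and 5 fell.

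**Figure D4:**
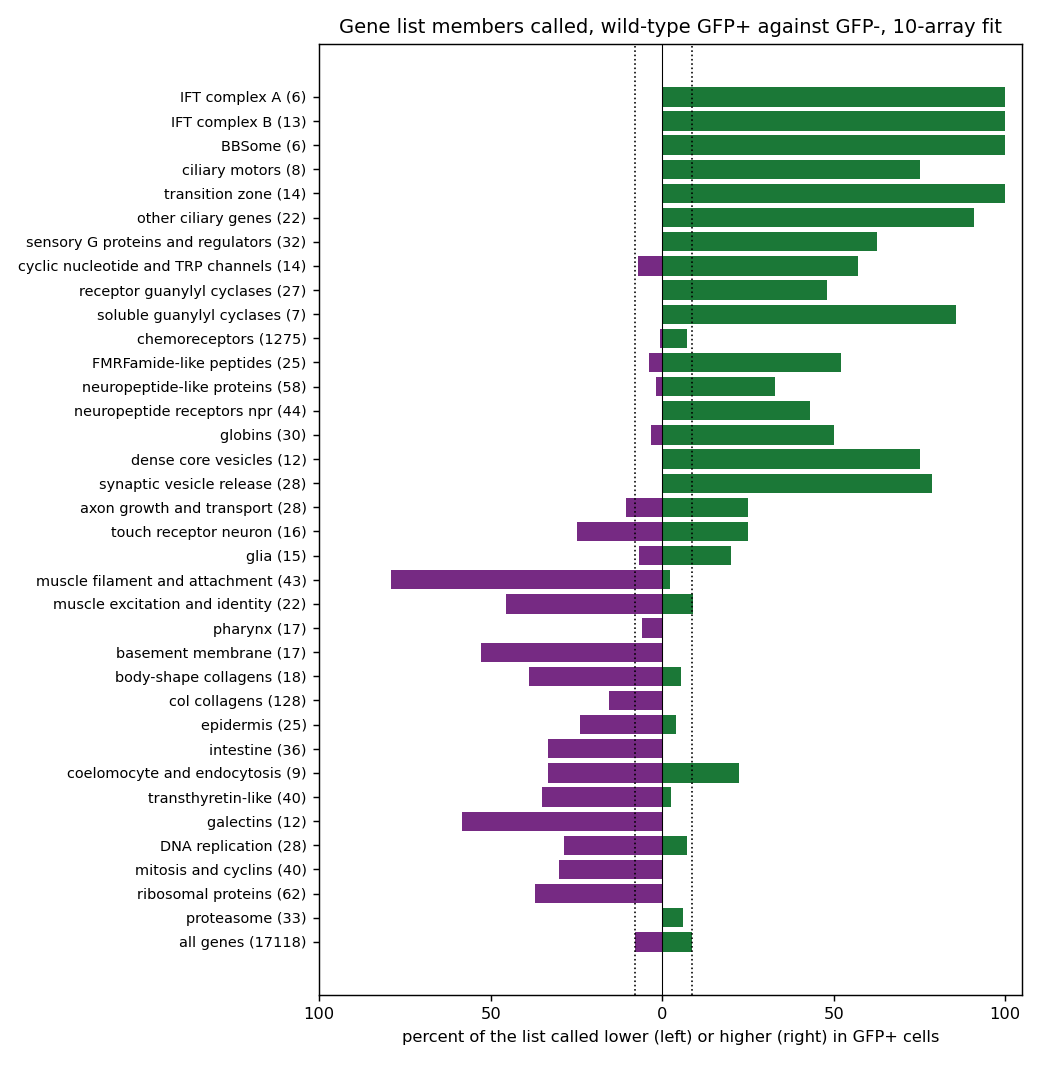
Percent of each gene list that passed limma in the fit of 10 arrays, lower in GFP+ cells to the left and higher to the right, with the number of genes in parentheses; dotted lines mark the shares over all genes (8.07% and 8.78%). All members of the IFT complexes, the BBSome and the transition zone were called higher, and 34 of 43 muscle filament genes lower.

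Muscle genes were mostly lower in GFP+ than in GFP- cells. Of 65 muscle genes on 2 lists 44 fell, 3 rose and 18 did not pass, beside 8.07% of all genes that fell, and the median was -1.43 (-1.02 with 12 arrays). Their mean was 7.93, 7.69 and 7.67 in GFP+ and 9.53, 9.01 and 7.75 in GFP- cells. For 55 of them GFP- replicate 3 read below both other GFP- arrays, a count for which no share over all genes was taken. Of 43 filament and attachment genes 34 fell and 1 rose, with a median of -1.88 (-1.23 with 12 arrays). The body wall myosin unc-54 read 6.44, 5.91 and 5.81 against 9.92, 8.95 and 5.49. GFP- replicate 3 was the lowest of the 6 arrays, and the gene fell by 3.25 ± 0.539 with 10 arrays (adjusted p = 0.0033). The myosin myo-3 fell by 2.92 ± 0.37. Troponin T mup-2 read 7.44, 7.03 and 8.54 against 11.48, 10.83 and 8.17 and fell by 3.92 ± 0.367 (adjusted p = 0.000136), and its 12-array difference was -2.49 ± 0.735 (adjusted p = 0.268). Troponin C pat-10 (-3.85 ± 0.342), calponin-like clik-1 (-3.67 ± 0.425) and troponin T tnt-3 (-3.48 ± 0.378) were next. The probe sets of all 6 can bind related transcripts. The gene that rose, unc-60, encodes a cofilin with a muscle and a non-muscle form (0.92 ± 0.214). Its call was lost with any of the 4 arrays left out, and its probe sets passed in opposite directions.

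Of 22 genes of muscle excitation and identity 10 fell and 2 rose (median -0.60, or -0.47 with 12 arrays), with falls of 6, 6, 7 and 7 when 1 array was left out. Calsequestrin csq-1, the calcium store protein, (-3.52 ± 0.491) and the regulator unc-120, a serum response factor (-2.82 ± 0.326), fell. The MyoD factor hlh-1 read 3.75, 3.78 and 4.06 against 6.13, 4.85 and 3.73 and fell by 1.73 ± 0.346, with its GFP+ replicates 1 and 2 under the lower quartile. It did not pass without GFP+ replicate 1 or GFP+ replicate 2. The rises, exp-2, a potassium channel (1.58 ± 0.224), and egl-19, a calcium channel also used by neurons (0.80 ± 0.192), numbered 1, 1, 2 and 1 with 1 array left out and 4 with the replicate block. Of 17 pharynx genes 1 fell, beside 8.07% of all genes, and the list median was -0.34 (-0.12 with 12 arrays). This gene was the pharyngeal myosin myo-2 (-1.17 ± 0.247, adjusted p = 0.0117). It did not pass without GFP+ replicate 2 or GFP- replicate 2. The list had 2, 0, 1 and 0 falls with 1 array left out, and 5 with the replicate block. The organ regulator pha-4 differed by 0.17 ± 0.341 (adjusted p = 0.831).

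Matrix and cuticle genes were lower in GFP+ cells as well. Of 17 basement membrane genes 9 fell, with a median of -1.44 (-0.98 with 12 arrays). Type IV collagen let-2 read 6.65, 6.48 and 6.78 against 9.96, 9.70 and 6.39 and fell by 3.27 ± 0.347 (adjusted p = 0.000272), and laminins epi-1 (-2.999 ± 0.452) and lam-2 (-2.87 ± 0.316) fell too. The protease mig-17 fell by 3.44 ± 0.324. Of 18 body-shape collagens 7 fell and 1 rose (median -0.58, or -0.38 with 12 arrays). In these genes the spread was wide: falls numbered 1, 1, 1 and 2 with 1 array left out and 11 with the replicate block. The collagen dpy-2 read 4.41, 4.54 and 5.81 against 7.72, 7.83 and 5.44 and fell by 3.30 ± 0.555. Larger in size but less steady was dpy-14 (-3.82 ± 0.971), whose call was lost with any of the 4 arrays left out. The collagen dpy-8 rose by 1.09 ± 0.23 and was higher in GFP+ cells in all 3 replicates, at 6.85, 6.77 and 7.13 against 5.79, 5.63 and 5.86. With 12 arrays it differed by 1.15 ± 0.195 (adjusted p = 0.248), and its 10-array call was lost without GFP+ replicate 1, GFP+ replicate 2 or GFP- replicate 2. Of 128 col collagens 20 fell, with 6, 3, 5 and 3 when 1 array was left out and 31 with the replicate block; col-121 led (-3.44 ± 0.593).

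Epidermal genes fell in part. Of 25 genes 6 fell and 1 rose (median -0.38, or -0.39 with 12 arrays), with falls of 1, 2, 2 and 1 when 1 array was left out and 11 with the replicate block, which gave 3 rises. The molting regulator nhr-23 fell by 1.69 ± 0.296 (adjusted p = 0.00442), and the matrix gene noah-1 by 2.52 ± 0.567, a call lost with any of the 4 arrays left out. The epithelial factor lin-26 read 9.85, 9.90 and 9.08 against 10.21, 10.30 and 9.48 and did not pass (-0.38 ± 0.216, adjusted p = 0.31). Of 78 hedgehog-related genes, many of them epidermal, 7 fell and 1 rose, a share of falls near the 8.07% of all genes. The falls numbered 1, 1, 3 and 3 when 1 array was left out and 19 with the replicate block, which gave 3 rises. The patched-related ptr-5 rose by 2.16 ± 0.268. Among 40 transthyretin-like genes 14 fell and 1 rose (median -0.52, or -0.47 with 12 arrays); ttr-24 read 4.35, 4.11 and 5.403 against 8.75, 7.62 and 5.12 and fell by 3.96 ± 0.38, and ttr-35 (-3.88 ± 0.357) and ttr-6 (-3.83 ± 0.202) fell too. The rise was lost with any of the 4 arrays left out. Of 12 galectins, sugar-binding proteins, 7 fell, led by lec-5 (-3.86 ± 0.501), with 4, 3, 3 and 3 when 1 array was left out.

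Gut, coelomocyte and germline genes were mixed. Beside their counts stand 8.07% of all genes that fell and 8.78% that rose. Of 36 intestinal genes 12 fell (median -0.35, or -0.15 with 12 arrays), and the falls numbered 8, 9, 7 and 8 with 1 array left out. They were led by cpi-1, asp-5, spp-10 and asp-6 (-2.90 ± 0.498), proteins of lysosomes and digestion that other cells can make. The gut regulator elt-2 read 5.04, 5.43 and 5.35 against 5.80, 5.95 and 5.87, apart in every replicate, and fell by 0.64 ± 0.176 (adjusted p = 0.0374). That call was lost without GFP+ replicate 1, GFP- replicate 1 or GFP- replicate 2, with a common array median and with the wild-type arrays alone. The gut esterase ges-1 read 4.18, 4.42 and 3.98 against 4.02, 4.22 and 4.04, near the lower quartile in both fractions. Coelomocytes are scavenger cells of the body cavity. Their channel cup-4 read 4.60, 4.89 and 5.05 against 8.24, 8.69 and 4.42 and fell by 3.72 ± 0.236 (adjusted p = 2.04e-05). With unc-122 (-3.03 ± 0.247) and lgc-26 (-2.07 ± 0.228) it made 3 falls among 9 genes, beside 2 rises, the endocytosis genes cup-14 (0.75 ± 0.152) and rme-8 (0.75 ± 0.17). The rises numbered 0, 1, 0 and 1 with 1 array left out. The median was 0 with 10 arrays and -0.07 with 12. Of 21 germline and early embryo genes 4 fell and 2 rose. The P granule helicase glh-1 (-2.2 ± 0.414), deps-1 (-1.76 ± 0.197) and spn-4 (-1.28 ± 0.192) fell, and the maternal RNA-binding gene pos-1 rose by 1.74 ± 0.208. The rises numbered 1 with any of the 4 arrays left out, and the falls 6 with the replicate block.

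Genes of dividing cells were lower in GFP+ cells in part. Of all genes 8.07% fell and 8.78% rose. Of 40 mitosis and cyclin genes 12 fell, with a median of -0.66 (-0.40 with 12 arrays). The counts were 7, 5, 4 and 8 with 1 array left out and 19 with the replicate block. The mitotic kinase cdk-1 read 5.99, 5.77 and 5.87 against 8.19, 7.68 and 6.04 and fell by 2.05 ± 0.319 (adjusted p = 0.00236). The kinetochore gene him-10 (-2.40 ± 0.389) and the cohesin scc-1 (-2.25 ± 0.406) fell too. Of 28 replication genes 8 fell and 2 rose (median -0.51, or -0.28 with 12 arrays), with falls of 4, 2, 4 and 3 when 1 array was left out and 13 with the replicate block. The helicase subunit mcm-7 (-3.07 ± 0.544) and the origin protein orc-5 (-1.54 ± 0.179) were among the falls. The origin gene orc-2 and the single-strand binding gene rpa-1 rose by 0.91 ± 0.148 and 0.75 ± 0.145 and were higher in all 3 replicates, with rpa-1 at 7.74, 7.68 and 8.02 against 6.88, 7.04 and 7.03. The call of rpa-1 was lost without GFP+ replicate 1 or GFP- replicate 1.

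Ribosomal protein genes were slightly lower in GFP+ cells of replicates 1 and 2 and highest on both replicate 3 arrays. Their mean over 62 genes was 11.88, 11.75 and 12.85 in GFP+ and 12.54, 12.45 and 12.73 in GFP- cells. Of these genes 23 fell, with a median of -0.61 (-0.38 with 12 arrays), and 7, 9, 9 and 8 fell with 1 array left out. With the arrays shifted to a common median 15 fell. The gene rps-19 read 11.02, 11.07 and 13.07 against 12.40, 12.38 and 13.03 and fell by 1.35 ± 0.196 (adjusted p = 0.00168). Of all genes 8.78% rose and 8.07% fell. Of 33 proteasome genes 2 rose, rpn-1 (0.74 ± 0.145) and rpn-2 (0.55 ± 0.157), with a median of 0.01 (0.08 with 12 arrays). The count became 0, 0, 0 and 1 with 1 array left out. Of 12 small heat shock proteins 4 fell, among them sip-1 (-2.99 ± 0.36) and hsp-12.3 (-2.90 ± 0.379). For hsp-12.3 the replicate 3 arrays read 8.64 and 8.41, against 4.73 and 5.33 in GFP+ and 7.33 and 8.54 in GFP- cells. Of 15 cell death genes 2 fell, cps-6 (-0.98 ± 0.158) and nuc-1 (-0.90 ± 0.22), both nucleases; 1 fell with any of the 4 arrays left out and 3 with the replicate block.

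Markers of glia, the support cells of sensory neurons, gave values for another cell type that a GFP+ gate could hold. Of 15 genes on the list, which also holds neuronal genes, 3 rose and 1 fell, beside 8.78% and 8.07% of all genes. The median was -0.01 (-0.03 with 12 arrays). The rises were che-12 (3.38 ± 0.284), the Pax factor vab-3 (1.05 ± 0.185) and dyf-7 (0.89 ± 0.216). Of these, che-12 is a gene of ciliated neurons and dyf-7 a neuronal gene of dendrite anchoring. The count of rises therefore does not measure glia alone. For dyf-7 the call was lost with any of the 4 arrays left out. The sheath gene daf-6 fell by 1.13 ± 0.236, a call lost without GFP+ replicate 1, GFP+ replicate 2 or GFP- replicate 2, and the falls were 4 with the replicate block. The glial genes fig-1 and ptr-10 read 3.21, 3.25 and 3.41 and 3.76, 3.73 and 4.34 in GFP+ cells. Both lay under the lower quartile of GFP+ replicates 1 and 2 (4.075 and 4.166). Their GFP- values are not given here, so these readings do not show whether the fractions differ. The list mean was 7.07, 7.06 and 7.27 in GFP+ and 6.93, 6.97 and 7.26 in GFP- cells.

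The difference between the fractions was compared with that of the mir-124 mutant by the interaction in limma, which asks whether it departs from the most similar comparison. No probe set passed in either fit (percent called 0), and the smallest adjusted p was 1. An unadjusted p under 0.05 was found for 329 probe sets with 12 arrays and 266 with 10, fewer than the 1127 expected by chance, and a missing call is no evidence that both strains respond equally. For trpa-1 the strain difference of the fraction difference was 0.55 ± 0.208 with 10 arrays (adjusted p = 1).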

How the data were processed

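The arrays hold 22625 probe sets. The deposited values are log2 signals. Which method made them is not stated: the submitters' processing notes list limma, affy, MAS5 and RMA with no role or order. They were used as deposited, with no further normalization. Control probe sets (77) were left out and 22548 were tested with limma 3.58.1 in R 4.3.3, as 4 group means with eBayes, 2-sided, with Benjamini-Hochberg adjustment over all of them and a threshold of 0.05. The comparison was fitted with 12 arrays and with 10, without both wild-type replicate 3 arrays. The platform annotation gave 20766 probe sets 1 gene, 887 several and 895 none; the brightest single-gene probe set by mean over 12 arrays stands for each of 17118 genes. Of the 2981 genes with several probe sets, 533 had some but not all of them called with 10 arrays, and 310 had all called one way. The number of arrays limits the precision.

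Replicate numbers were read as pairing the arrays, since same-numbered arrays deviated together from their group means. The correlations were 0.485, 0.41 and 0.418 in the wild type and 0.36, 0.435 and 0.359 in the mutant. Values within a strain are not independent, and the wild-type means include both replicate 3 arrays, which stood apart together. With wild-type replicates 1 and 2 only, the correlation was 0.546, which is the same for both numbers by construction. The labels do not say what a number shares. The fits behind "rose", "fell" and "passed" did not use this pairing, which entered only in the alternative with the replicate block. Named genes were, from the 10-array fit, the 10 largest rises and the 10 largest falls among genes that passed and whose replicates 1 and 2 did not overlap, every gene called with 12 arrays, up to 4 rises and 4 falls that passed in each list, and the members of the neuron class and other cell type marker lists. The members and lists were chosen with earlier results of these data known. The fitting steps were tested on simulated data with independent noise on each array. That noise lacks the shared deviations of same-numbered arrays and the shift of replicate 3, so the p-values were not tested under these. Alternatives were the replicate block, quantile scaling, a common array median, no dim probe sets, eBayes with trend, array weights, the wild-type arrays alone and leaving out each array. List medians were also taken with the mean of all single-gene probe sets of a gene. A planned description of promoter motifs was not run, since no promoter sequences were used here.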

Additional observations from a re-analysis of the deposited data

How the results depend on the processing

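With all 12 arrays, 1 probe set passed limma as labelled, 0 with the replicate number as a block within strain, 0 with the wild-type arrays alone, 5130 with array weights and 3611 without both replicate 3 arrays. Leaving out 1 wild-type array gave between 0 and 2705, the highest without GFP- replicate 3 and 394 without GFP+ replicate 3. With the 10 arrays the count of 3611 ranged from 1889 to 2164 when 1 more wild-type array was left out, and became 5322 with the replicate block, which kept 3583 of them. The other 10-array settings gave between 3476 (eBayes with trend) and 4674 (array weights) probe sets. The comparison between the strains had no calls in any setting. The cause of these changes was not tested. Signals near the lower quartile limit the size of differences of dim genes.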
